A study of Mus musculus with 13 samples.

Results

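Axon guidance genes were examined in excitatory neurons of the mouse claustrum, a thin sheet of neurons beneath the insular cortex. The members were taken by symbol as the semaphorins, plexins of classes A to D, neuropilins, Eph receptors, ephrins, netrins with their receptors Dcc and Unc5a to Unc5d, Slits and Robos. The count tables listed 66 such genes of 23427 in all, and Efna5 and Robo4 were not analysed here. Cells were picked by hand from microdissected claustrum of 4 mature male wild-type C57BL/6 mice and processed in 13 plates. In 1 mouse, called here the blindly sampled mouse, the dissection was guided by GFP from a retrograde virus (rAAV2-retro-CAG-GFP) placed in the anterior cingulate cortex, and cells were picked without regard to GFP. In projection mice 1 to 3, red retrobeads were injected into the retrosplenial cortex (RSC) and green retrobeads into the lateral entorhinal cortex (LEC), and cells were taken as RSC, LEC or Unlabeled. Unlabeled cells carried no recorded bead label, which does not show where they project. The paper counts all kept cells outside its LEC and RSC sets as blindly selected. Whether the Unlabeled cells were free of beads is not given in the sources used here. A label marks uptake of a tracer at the injection site, and no other target of the cell was read out.

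Guidance molecules steer growing axons and shape synapses. Secreted class 3 semaphorins act through neuropilins, which bind the ligand, and plexins, which carry the signal into the cell. Ephrins and Eph receptors signal in both directions between touching cells, netrins attract through Dcc and repel through Unc5 receptors, and Slits repel through Robo receptors. Many of these genes remain expressed in adult neurons, where they are known to act on dendritic spines and synapses.

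Of 1112 harvested cells, 1011 had at least 1 count of Snap25, a neuronal gene, and of Slc17a7, the vesicular glutamate transporter of cortical excitatory neurons, and were kept. Kept cells were divided by Synpr, a synaptic vesicle gene that marks the claustrum core, at 200 CPM (a gene's counts scaled to a fixed total per cell or sum), giving 438 Synpr-high and 573 Synpr-low cells, of which 21 lay within 2-fold of the limit. Counts were summed per mouse and class, or per mouse and label, so that mice were the replicates. The sums of the classes held 3455169 to 27550365 counts and those of the labels 7058821 to 20871767. The blindly sampled mouse was the shallowest, with a median of 26023 counts per cell, against 138535 to 154261.5 in the projection mice. The markers followed the classes, with the other core genes summing to 4327 to 4770 CPM in Synpr-high and 321 to 714 CPM in Synpr-low sums, and the shell genes Nnat, Spon1 and Slc30a3 to 51.5 to 103 CPM and 667 to 1811 CPM. Genes of cortical layer 6 summed to 17.8 to 33.0 CPM in Synpr-high and 129 to 680 CPM in Synpr-low sums, so the Synpr-low class also held cells with layer 6 genes. Astrocyte genes did not pass 2.998 CPM and microglial genes 8.17 CPM in any class sum, while oligodendrocyte genes ranged from 4.99 to 254 CPM in the Synpr-high and from 8.51 to 493 CPM in the Synpr-low sums. Inhibitory neuron genes reached 143 CPM in the Synpr-high and 31.9 CPM in the Synpr-low sums. The part of RNA from other cell types in the results was not tested, but without the 15 cells in which such markers summed to at least 500 CPM, 21 of 56 tested members passed the threshold between classes (9.17% of all genes in that fit) and 13 of 56 between RSC and LEC cells (4.54%).

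The first comparison asked which guidance genes differ between the Synpr-high and Synpr-low neurons. Of the 66 members, 56 passed the filter on low counts, and 18 of these passed the threshold of an adjusted p of 0.05 in edgeR (quasi-likelihood F test, p-values adjusted by Benjamini-Hochberg), against 8.81% of all 13640 genes tested. In Synpr-high cells 7 were higher (4.47% of all genes) and 11 were lower (4.34%). The median log2 fold change was -0.09 over the 56 members and -0.000505 over all genes. Among the lower genes were the class 3 semaphorins Sema3c, Sema3e and Sema3f together with the receptors Nrp1, Plxnd1 and Plxnc1, and among the higher ones were the Eph receptors Epha5 and Ephb1 and the netrin receptor Unc5d. The levels of the 4 mice did not overlap between classes for 20 of the 56 tested members, against 15.5% of all genes, and all 18 that passed the threshold were among them. Levels are TMM-normalized CPM, and fold changes are on the log2 scale, Synpr-high over Synpr-low, ± SE.

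**Figure D1:**
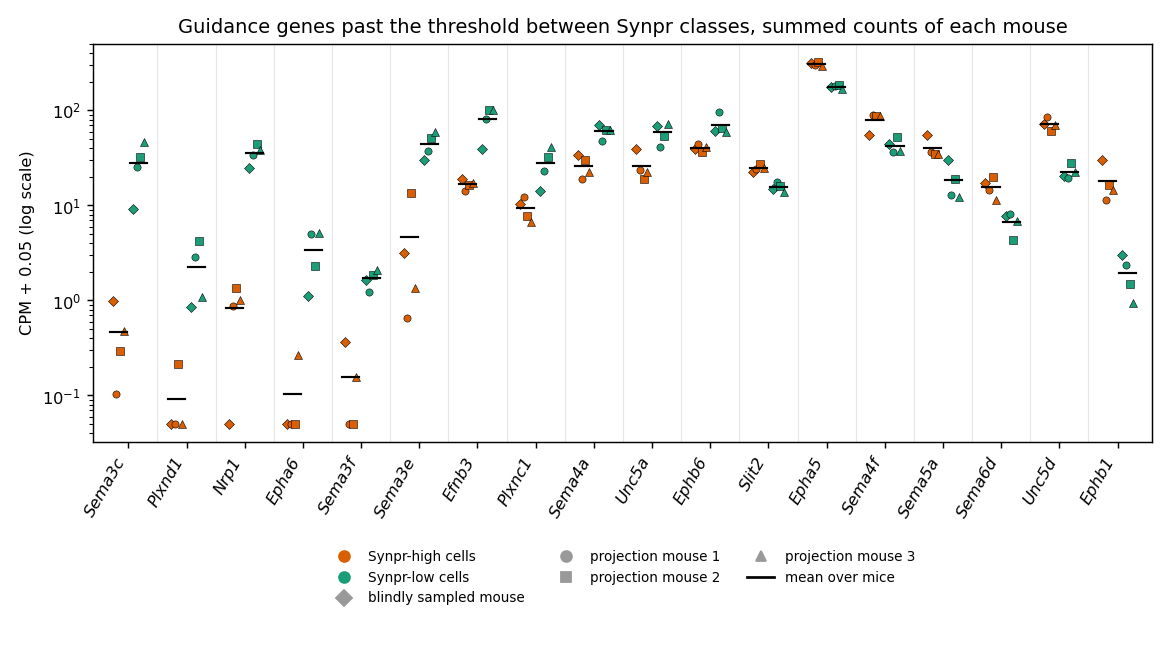
Level of the 18 guidance genes past the threshold between Synpr classes, as CPM + 0.05 on a log axis. Each point is the summed cells of 1 mouse in 1 class, bars are means over the 4 mice, and genes run from the most negative to the most positive fitted log2 fold change, from Sema3c (-6.46) to Ephb1 (3.31).

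The promoters of 4 of these genes are shown. Sema3c and Nrp1 were chosen from the genes with the most negative fold changes, Ephb1 for the largest positive fold change and Epha5 for the fold change with the smallest SE. Each is the 250 bases before the gene's start in RefSeq on GRCm38.p6, read 5′ to 3′ on the gene's strand, with GGGCGG (the GC box that Sp1 factors bind) or its reverse complement in capitals. The counts were made on NCBIM37, and no coordinate was carried between the builds. The regions are chr8:128358823-128359072 (+ strand) for Nrp1, chr5:17574566-17574815 (+) for Sema3c, chr9:102354694-102354943 (-) for Ephb1 and chr5:84417383-84417632 (-) for Epha5.
Nrp1: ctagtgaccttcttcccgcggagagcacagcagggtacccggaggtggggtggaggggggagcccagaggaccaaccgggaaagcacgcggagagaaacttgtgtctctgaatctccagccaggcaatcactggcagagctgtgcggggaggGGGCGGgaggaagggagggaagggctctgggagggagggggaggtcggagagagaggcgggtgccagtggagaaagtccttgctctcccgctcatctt
Sema3c: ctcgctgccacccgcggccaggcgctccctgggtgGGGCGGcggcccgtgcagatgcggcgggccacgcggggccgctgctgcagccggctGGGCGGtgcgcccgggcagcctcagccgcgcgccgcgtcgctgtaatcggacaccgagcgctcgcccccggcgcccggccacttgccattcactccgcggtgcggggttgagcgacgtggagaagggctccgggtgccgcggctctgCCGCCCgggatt
Ephb1: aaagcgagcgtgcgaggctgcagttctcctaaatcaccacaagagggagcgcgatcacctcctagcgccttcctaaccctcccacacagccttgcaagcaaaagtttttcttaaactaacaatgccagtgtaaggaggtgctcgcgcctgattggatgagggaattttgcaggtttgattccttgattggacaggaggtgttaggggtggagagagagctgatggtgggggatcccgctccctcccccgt
Epha5: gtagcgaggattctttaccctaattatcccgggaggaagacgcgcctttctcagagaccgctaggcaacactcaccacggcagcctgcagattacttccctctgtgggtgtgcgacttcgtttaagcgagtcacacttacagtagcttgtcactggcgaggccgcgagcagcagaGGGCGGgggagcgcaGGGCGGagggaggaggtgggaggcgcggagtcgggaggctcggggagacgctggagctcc
Sema3c held 3 matches to GGGCGG on either strand, Epha5 held 2, Nrp1 held 1 and Ephb1 held 0. Of the 18 genes, 15 had a promoter entry, and 13 of these had a match in at least 1 of their listed starts, against 35.4% of the 27025 genes listed counted in the same way. By start, 15 of the 19 starts of these genes had a match, against 32.7% of all 32851. TATAAA, the TATA box, was found in 1 of the 15 genes and in 14.3% of all genes, and AAAGGTCA, a site of orphan nuclear receptors, in 0 of the 15 and 1.55% of all, both strands read. CG dinucleotides numbered 39 in Sema3c, 20 in Epha5, 11 in Nrp1 and 10 in Ephb1, with a median of 6 over all promoters. The list of all genes includes genes that were not tested here. No share was taken for the tested genes alone or for members that did not pass, so these shares cannot be tied to the calls. These matches are a description of the letters and show no binding.

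Of the 19 semaphorins tested, 3 were higher and 4 lower in Synpr-high cells, with a median log2 fold change of -0.06. Sema3c, a secreted class 3 ligand, was at 0.936, 0.0544, 0.244 and 0.433 CPM in Synpr-high cells of the blindly sampled mouse and projection mice 1, 2 and 3. In Synpr-low cells of the same mice it was at 9.04, 25.2, 32.0 and 46.7 CPM. The classes did not overlap, the lowest Synpr-low value being that of the blindly sampled mouse, and the log2 fold change was -6.46 ± 0.72 (adjusted p = 0.000419). All Synpr-high cells together held 19 Sema3c counts in 6 cells, against 2521 counts in 167 Synpr-low cells.

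Sema3e, the class 3 ligand that binds Plxnd1 without a neuropilin, was at 3.12, 0.599, 13.4 and 1.30 CPM in Synpr-high cells and at 30.0, 37.5, 51.0 and 58.6 CPM in Synpr-low cells, in the same order of mice. Every Synpr-low value was above every Synpr-high value, although projection mouse 2 stood above the other Synpr-high sums, and the log2 fold change was -3.28 ± 0.80 (adjusted p = 0.0297). Sema3f, a ligand of Nrp2, was sparse, with 4 counts in Synpr-high and 126 in Synpr-low cells, and its mean level was 0.105 ± 0.147 CPM (SD, n = 4) against 1.67 ± 0.37 CPM. Its log2 fold change was -4.49 ± 1.06 (adjusted p = 0.0249). Sema3a, the first described chemorepellent of this class, was at a mean of 3.64 ± 3.27 CPM in Synpr-high and 11.2 ± 5.2 CPM in Synpr-low cells, with overlapping classes, and did not pass (log2 fold change -1.58, 95% interval -2.90 to -0.26, adjusted p = 0.15).

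Sema4a, a membrane-bound semaphorin, was at 33.7, 18.8, 29.9 and 22.4 CPM in Synpr-high and at 70.2, 48.1, 62.9 and 61.9 CPM in Synpr-low cells, without overlap (log2 fold change -1.22 ± 0.21, adjusted p = 0.00511). The 3 semaphorins that were higher in Synpr-high cells are also membrane-bound. Sema4f was at 54.9, 90.2, 87.9 and 87.5 CPM in Synpr-high and at 44.1, 36.2, 52.6 and 37.6 CPM in Synpr-low cells (log2 fold change 0.91 ± 0.20, adjusted p = 0.0155). In the blindly sampled mouse the classes lay close together for this gene, and the other 3 mice held them well apart.

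Sema5a, whose extracellular part carries thrombospondin repeats, was at 54.9, 36.3, 34.7 and 34.8 CPM in Synpr-high and at 29.8, 12.7, 19.1 and 12.2 CPM in Synpr-low cells (log2 fold change 1.14 ± 0.30, adjusted p = 0.0435). Sema6d, a transmembrane ligand of class A plexins, was at 17.2, 14.4, 19.7 and 11.3 CPM against 7.71, 8.01, 4.24 and 6.76 CPM (log2 fold change 1.23 ± 0.30, adjusted p = 0.0289). Neither gene overlapped between classes. Without the blindly sampled mouse Sema3e and Sema6d no longer passed (adjusted p = 0.0516 and 0.0514 in edgeR).

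Of the 9 neuropilins and plexins tested, 0 were higher and 3 lower, with a median of -0.58. Nrp1, the neuropilin that binds Sema3a and is also a co-receptor of VEGF, was at 0, 0.817, 1.30 and 0.973 CPM in Synpr-high cells and at 24.7, 33.8, 44.0 and 38.3 CPM in Synpr-low cells. The classes were far apart in every mouse, with 58 counts in all Synpr-high cells and 2766 in Synpr-low cells, and the log2 fold change was -5.29 ± 0.44 (adjusted p = 8.28e-05). When each cell was thinned to 20000 counts, 2 of 412 Synpr-high cells (0.485%) and 139 of 515 Synpr-low cells (27.0%) had an Nrp1 count. In the same cells before thinning the shares were 2.18% and 36.1%.

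Plxnd1, the receptor of Sema3e, had 2 counts in Synpr-high and 175 in Synpr-low cells, and 1 cell held 36.0% of the latter. Its level was 0.0407 ± 0.0814 CPM (SD, n = 4) against 2.19 ± 1.58 CPM (log2 fold change -5.64 ± 1.24, adjusted p = 0.0176). Scaled by the class totals the counts differed 76.6-fold, with a 95% interval of 20.9 to 638. This interval takes each count as independent and leaves out the spread between cells and mice. Where 1 molecule gave several reads it is too narrow. Plxnc1, the receptor of Sema7a, was at 10.3, 12.3, 7.74 and 6.70 CPM in Synpr-high and at 14.1, 23.1, 32.7 and 40.8 CPM in Synpr-low cells, without overlap (log2 fold change -1.60 ± 0.34, adjusted p = 0.0158). The step was smallest in the blindly sampled mouse.

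The other receptors of class 3 semaphorins gave no call in this fit, in which the sums of 1 mouse were not paired. Nrp2, which binds Sema3f, was at 16.9 ± 5.3 CPM in Synpr-high and 38.3 ± 14.6 CPM in Synpr-low cells (SD, n = 4), lower in Synpr-high cells of 4 of 4 mice, and lay at the threshold (adjusted p = 0.0513). Plxna1 to Plxna4, which pair with neuropilins, had log2 fold changes of 0.15, 0.35, 0.24 and -0.38, and the smallest adjusted p among them was 0.247, that of Plxna2. The Plxna2 levels were 80.6 ± 8.3 and 63.2 ± 11.9 CPM, so this receptor was measured well in both classes, and the 95% interval of its log2 fold change ran from 0.00 to 0.71.

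**Figure D2:**
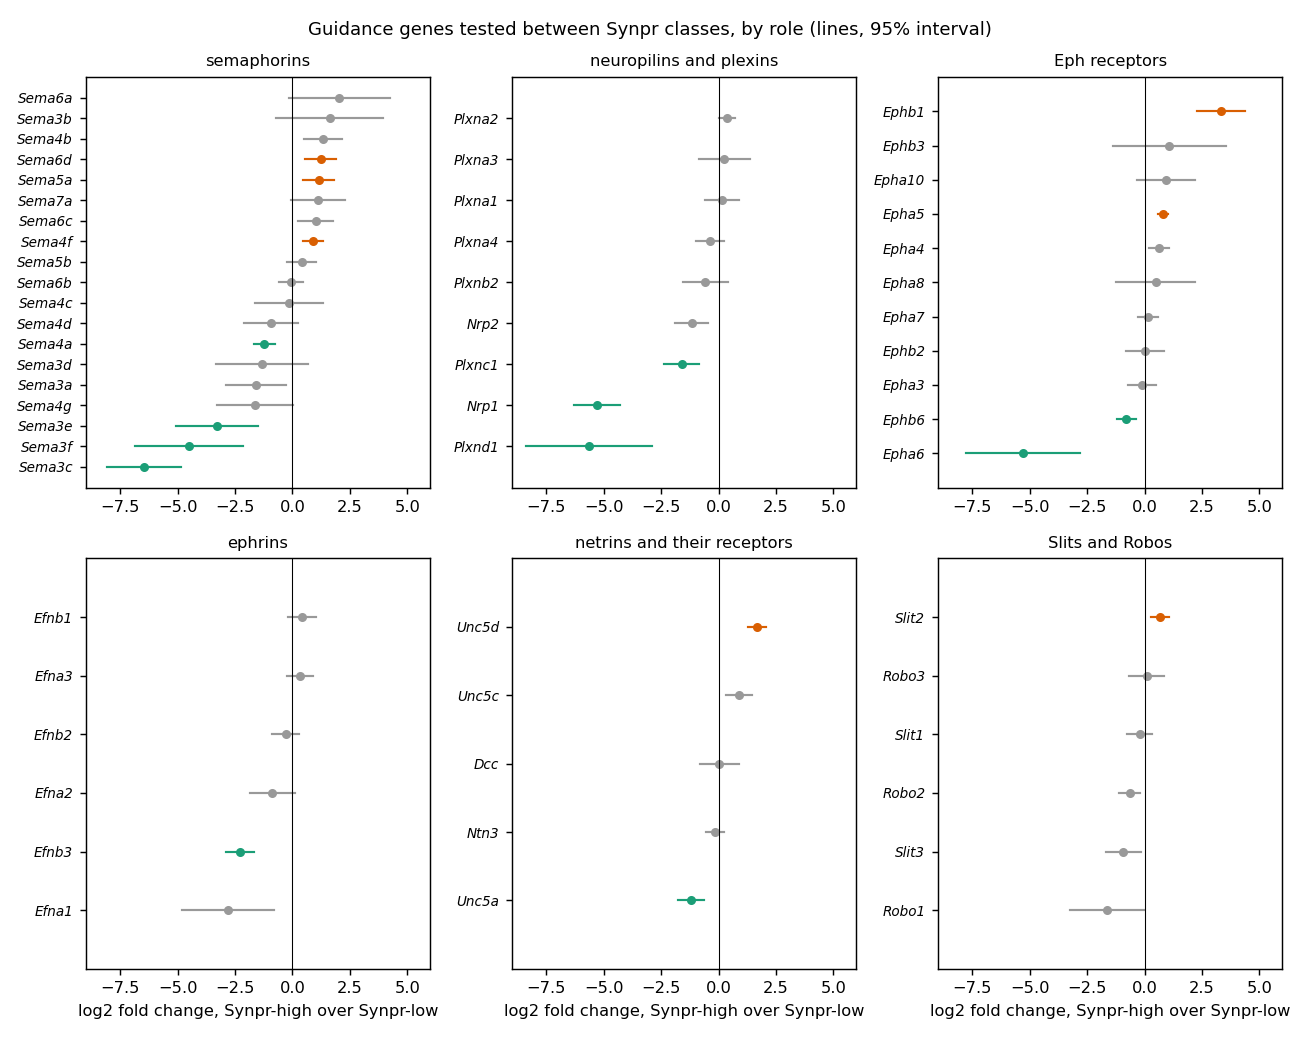
log2 fold change, Synpr-high over Synpr-low, of the 56 guidance genes tested, by role, with 95% intervals as lines. Orange marks the 7 genes that passed higher, green the 11 that passed lower and grey the others. The points furthest to the left are those of Sema3c, Plxnd1, Nrp1, Epha6 and Sema3f.

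Of the 11 Eph receptors tested, 2 were higher and 2 lower, with a median of 0.48. Ephb1, a receptor of ephrin-B ligands known for its part at the optic chiasm, was at 30.0, 11.5, 16.4 and 14.3 CPM in Synpr-high and at 2.92, 2.33, 1.45 and 0.89 CPM in Synpr-low cells (log2 fold change 3.31 ± 0.47, adjusted p = 0.00165). The classes did not overlap, and in thinned cells 17.2% of Synpr-high and 2.33% of Synpr-low cells had an Ephb1 count, against 31.1% and 4.27% before thinning. Epha5, a receptor of ephrin-A ligands, was at 320, 297, 323 and 296 CPM against 178, 179, 187 and 167 CPM (log2 fold change 0.80 ± 0.09, adjusted p = 0.00044). It had the smallest SE of the 18 genes, and its classes lay apart in every mouse.

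Epha6, another receptor of the A class, had 6 counts in 1 Synpr-high cell and 289 counts in 37 Synpr-low cells, at 0.0541 ± 0.1081 CPM against 3.32 ± 1.99 CPM (SD, n = 4; log2 fold change -5.29 ± 1.11, adjusted p = 0.0142). Ephb6, a receptor without kinase activity, was at 39.3, 44.7, 36.4 and 41.0 CPM in Synpr-high and at 60.6, 95.2, 65.3 and 58.9 CPM in Synpr-low cells, without overlap (log2 fold change -0.80 ± 0.18, adjusted p = 0.0201). Epha4, which binds ephrins of both classes, was at 173 ± 28 and 112 ± 30 CPM and did not pass (log2 fold change 0.63, adjusted p = 0.0829). Epha7 and Ephb2 had log2 fold changes of 0.14 (95% interval -0.31 to 0.59) and 0.01 (-0.80 to 0.82).

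Among the 6 ephrins tested, 1 was lower, 0 were higher and the median was -0.59. Efnb3, the ephrin-B known as a midline barrier to corticospinal axons, was at 18.7, 14.1, 16.2 and 17.4 CPM in Synpr-high and at 39.6, 81.4, 101 and 101 CPM in Synpr-low cells (log2 fold change -2.30 ± 0.28, adjusted p = 0.000647). The Synpr-high values were close to each other, and the Synpr-low value of the blindly sampled mouse was below those of the other mice. Efna3 and Efnb2, ligands of the A and B receptors, were at 27.8 and 21.8 CPM in Synpr-high cells and had log2 fold changes of 0.33 (95% interval -0.25 to 0.90) and -0.29 (-0.89 to 0.30).

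Of the 5 netrin genes and receptors tested, 1 was higher and 1 lower, with a median of 0.03. Unc5d, a repulsive netrin receptor that also binds the adhesion protein Flrt2, was at 72.4, 84.9, 61.2 and 70.6 CPM in Synpr-high and at 20.2, 19.5, 28.2 and 22.2 CPM in Synpr-low cells (log2 fold change 1.68 ± 0.17, adjusted p = 0.000274). Unc5a, of the same family, went the other way, at 39.0, 23.6, 19.0 and 22.5 CPM against 68.6, 40.8, 54.1 and 71.2 CPM (log2 fold change -1.19 ± 0.26, adjusted p = 0.0167). The classes overlapped for neither gene. Unc5c was at 50.4 ± 6.06 and 27.2 ± 9.97 CPM (SD, n = 4), without overlap, and did not pass (log2 fold change 0.88 ± 0.25, adjusted p = 0.0565).

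Dcc, the attractive netrin receptor, was at 5.47 ± 1.34 CPM in Synpr-high and 5.27 ± 1.82 CPM in Synpr-low cells, and its log2 fold change was 0.03 with a 95% interval from -0.82 to 0.89. The ligands Ntn1 and Ntn4 and the receptor Unc5b did not pass the filter. Ntn1 had 9 counts in Synpr-high and 24 in Synpr-low cells, Unc5b 1 and 10, and Ntn4 88 and 3. The 88 Ntn4 counts lay in 7 cells, and 1 cell held 61.4% of them. Likewise 1 cell held 90% of the 10 Unc5b counts.

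Of the 6 Slits and Robos tested, 1 was higher and 0 were lower, with a median of -0.44. Slit2, a secreted repellent, was at 22.5, 24.3, 27.2 and 24.9 CPM in Synpr-high and at 14.9, 17.5, 15.8 and 13.9 CPM in Synpr-low cells (log2 fold change 0.67 ± 0.17, adjusted p = 0.0391). The values lay close together within each class, but the call was lost in 11 of 20 alternative settings, including the sums without the blindly sampled mouse. Slit1 and Slit3, the other ligands, had log2 fold changes of -0.22 (adjusted p = 0.742) and -0.92 (adjusted p = 0.142). Robo1 and Robo2, their receptors, had log2 fold changes of -1.63 (adjusted p = 0.245) and -0.66 (adjusted p = 0.0934).

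Members that did not pass the filter were Efna4, Epha1, Epha2, Ephb4, Ntn1, Ntn4, Plxnb1, Plxnb3, Sema3g and Unc5b, and Epha2 had 0 counts in all cells. The number of tested members that passed depended on the mice. It was 18 without the blindly sampled mouse, but 8, 10 and 6 without projection mouse 1, 2 or 3. The share of all genes moved as well, to 11.3% without the blindly sampled mouse and to 4.48%, 4.76% and 4.06% without the others. With the mouse as a replicate block 24 members and 14.6% of all genes passed, and each of the 18 was among the 24. Efnb3, Epha5, Ephb1, Nrp1 and Sema3c were the 5 of the 18 that passed in every one of the 20 alternative settings. Epha6, Nrp1, Plxnc1, Sema4a, Ephb1 and Unc5a share exon bases with another annotated gene (GENCODE M21), for Epha6, Ephb1 and Unc5a on the opposite strand, and the use of strand in counting was not given in the sources used here.

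The Synpr-low class was then divided by the summed level of 9 layer 6 genes at 100 CPM, which gave 166 cells above and 407 below, with 78 cells within 2-fold of the limit. The mix of layer 6 genes differed between mice. In whole Synpr-low sums Cplx3 was at 437, 21.2, 79.8 and 9.36 CPM (TMM-normalized) in the blindly sampled mouse and projection mice 1, 2 and 3. Rprm was at 36.7, 154, 42.3 and 45.6 CPM. Whether the cells above the limit were of 1 kind in every mouse was not tested. Levels below are CPM of the summed counts without TMM factors. Sema5a was at 75.9, 23.6, 54.6 and 37.5 CPM in the cells with layer 6 genes and at 5.68, 7.87, 8.99 and 5.47 CPM in the others, next to 39.1 ± 7.9 CPM (SD, n = 4) in Synpr-high cells. Its levels in the layer 6 cells thus spanned those of the Synpr-high cells, and the other Synpr-low cells lay below both in every mouse. Without the layer 6 cells the log2 fold change of Sema5a between classes was 2.52 (adjusted p = 0.000207).

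Unc5a showed the opposite arrangement, at 24.2 ± 5.4 CPM in the layer 6 cells, 73.1 ± 16.2 CPM in the other Synpr-low cells and 25.3 ± 7.5 CPM in Synpr-high cells. Sema6d was at 13.1 ± 6.0, 4.21 ± 3.43 and 15.3 ± 3.3 CPM in the same order, and without the layer 6 cells its log2 fold change was 1.85 and did not pass (adjusted p = 0.0761). Nrp1 was at 24.3, 68.0, 104 and 62.8 CPM in the layer 6 cells and at 23.5, 18.2, 27.3 and 32.9 CPM in the others. Both parts of the Synpr-low class were thus above the 0.770 ± 0.549 CPM of Synpr-high cells. Unc5d, Sema3c and Ephb1 kept their direction without the layer 6 cells, with log2 fold changes of 1.45, -6.55 and 4.06. In all, 19 of 56 members and 8.89% of all genes passed between the classes without these cells. The difference between the parts of the Synpr-low class was not tested.

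**Figure D3:**
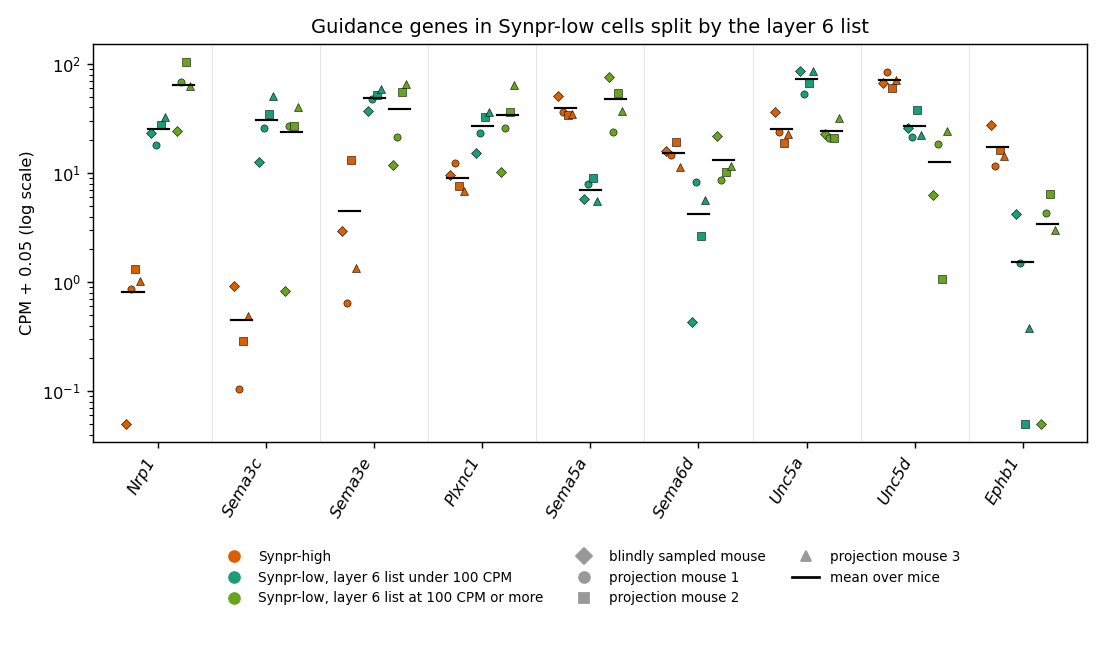
Level of 9 guidance genes in Synpr-high cells and in Synpr-low cells below or above 100 CPM of summed layer 6 genes, as CPM + 0.05 on a log axis, with 1 point per mouse and bars for means. Of the 3 sets of cells, the Synpr-low cells below the limit have the lowest means of Sema5a and Sema6d (7.004 and 4.21 CPM) and the highest mean of Unc5a (73.1 CPM).

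The share of Synpr-high cells differed between labels, at 213 of 247 RSC cells (86.2%), 45 of 286 LEC cells (15.7%), 67 of 240 Unlabeled cells (27.9%) and 113 of 238 cells of the blindly sampled mouse (47.5%). Class and label were therefore partly the same division. Among cells without a projection label, 8 of 45 members tested and 5.25% of all genes passed between classes, with Nrp1 at a log2 fold change of -5.64 and Sema5a at 0.14 (adjusted p = 0.956). Among RSC and LEC cells with the label as a term, 10 of 54 members and 5.64% of all genes passed, with Nrp1 at -4.98 and Unc5d at 0.89 (adjusted p = 0.308). Both fits were added after the data were seen.

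The second comparison asked which guidance genes differ between neurons that project to the RSC and to the LEC. Of 56 members tested, 11 passed, 4 higher and 7 lower in RSC cells, against 3.95% of all 13976 genes (1.89% higher and 2.06% lower). The median log2 fold change, RSC over LEC, was -0.01 over these members and -0.00125 over all genes. The lower genes were Sema3a, Sema3c, Sema3e, Nrp1, Plxnc1, Efnb3 and Unc5a, and the higher ones were Unc5d, Sema5a, Sema4f and Epha4. The 3 mice did not overlap between labels for 29 members, against 22% of all genes. This comparison shares its cells with that of the classes, so the genes common to both are not independent. Each plate held 1 label of 1 mouse except plate 12, so plate and label cannot be told apart outside it. Inhibitory neuron genes, 6 of the 7 listed, summed to 6.92 to 202 CPM in RSC and 0.244 to 0.955 CPM in LEC sums, and all 7 oligodendrocyte genes to 16.0 to 767 and 32.5 to 269 CPM. Their part in the result was not tested.

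**Figure D4:**
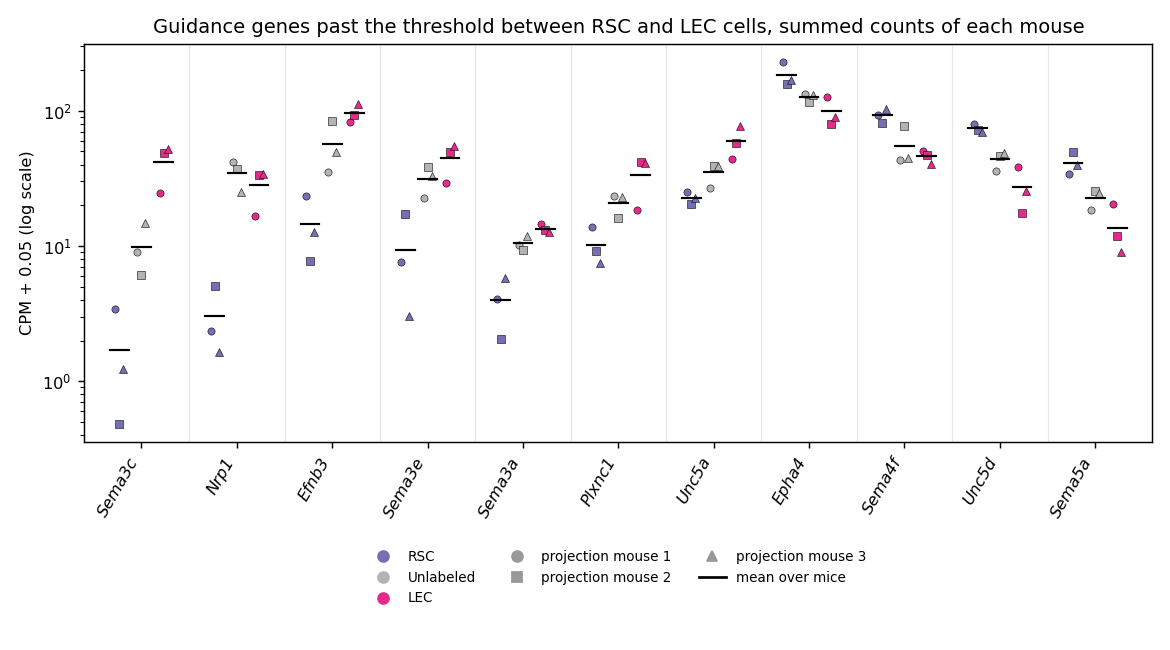
Level of the 11 guidance genes past the threshold between RSC and LEC cells, as CPM + 0.05 on a log axis. Points are the 3 projection mice, bars are means, and the Unlabeled mean lies between the RSC and LEC means for every gene except Nrp1 (34.7 CPM Unlabeled, 28.1 CPM LEC).

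Sema3c was at 3.39, 0.433 and 1.18 CPM in RSC cells of projection mice 1, 2 and 3 and at 24.6, 49.0 and 51.9 CPM in LEC cells (log2 fold change -4.58 ± 0.62, adjusted p = 0.00335). In Unlabeled cells it was at 8.92, 6.01 and 14.7 CPM, between the labels in every mouse. Nrp1 was at 2.31, 5.05 and 1.58 CPM in RSC cells and at 16.6, 33.7 and 33.9 CPM in LEC cells (log2 fold change -3.31 ± 0.46, adjusted p = 0.00347). Its Unlabeled values of 42.1, 37.0 and 25.2 CPM overlapped those of LEC cells.

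Efnb3 was at 23.2, 7.64 and 12.7 CPM in RSC and at 81.9, 93.4 and 113 CPM in LEC cells (log2 fold change -2.71 ± 0.40, adjusted p = 0.00437). Sema3e was at 9.23 ± 7.24 CPM in RSC and 44.5 ± 13.7 CPM in LEC cells (SD, n = 3; log2 fold change -2.32 ± 0.52, adjusted p = 0.0317). Sema3a, the ligand of Nrp1, was at 4.01, 2.02 and 5.72 CPM in RSC and at 14.39, 12.98 and 12.57 CPM in LEC cells, and passed here (log2 fold change -1.74 ± 0.39, adjusted p = 0.0331). None of these genes overlapped between RSC and LEC cells. Plxnc1 was at 10.1 ± 3.3 and 33.6 ± 13.1 CPM (log2 fold change -1.73 ± 0.36, adjusted p = 0.0238) and did not pass with the mouse as a replicate block (adjusted p = 0.0522).

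Unc5d and Unc5a again went opposite ways. Unc5d was at 80.2, 72.1 and 69.4 CPM in RSC and at 38.3, 17.5 and 25.5 CPM in LEC cells (log2 fold change 1.45 ± 0.26, adjusted p = 0.0117). Unc5a was at 24.9, 20.5 and 22.5 CPM in RSC and at 44.3, 57.8 and 77.5 CPM in LEC cells (log2 fold change -1.40 ± 0.24, adjusted p = 0.01). The spread between mice was larger in LEC than in RSC cells for both receptors.

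Sema5a was at 34.0, 49.2 and 39.7 CPM in RSC and at 20.3, 11.8 and 8.92 CPM in LEC cells (log2 fold change 1.59 ± 0.31, adjusted p = 0.0182). Layer 6 genes summed to 41.8 to 49.3 CPM in LEC sums, 20.03 to 201.1 CPM in RSC sums and 193 to 510 CPM in Unlabeled sums. Sema4f was at 92.3 ± 10.5 and 46.2 ± 5.2 CPM (SD, n = 3; log2 fold change 1.002 ± 0.23, adjusted p = 0.0331). Epha4 was at 229, 158 and 168 CPM in RSC and at 127, 80.1 and 89.6 CPM in LEC cells, the lowest RSC value being above the highest LEC value (log2 fold change 0.90 ± 0.19, adjusted p = 0.0266).

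Members with a part in the class comparison could miss the threshold here. Ephb1 was at 12.4 ± 5.4 CPM in RSC and 5.09 ± 2.20 CPM in LEC cells (log2 fold change 1.28, adjusted p = 0.193), Epha5 at 290 ± 29 and 224 ± 16 CPM (0.38, adjusted p = 0.114) and Nrp2 at 18.9 ± 5.4 and 46.4 ± 5.3 CPM (-1.29, adjusted p = 0.0605). Dcc was at 4.83 ± 1.02 and 5.02 ± 3.63 CPM. Of the 11 Eph receptors tested 1 passed, of the 6 ephrins 1, of the 19 semaphorins 5, of the 9 neuropilins and plexins 2, of the 5 netrin genes and receptors 2 and of the 6 Slits and Robos 0.

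The count of 11 rested on all 3 mice, with 8, 2 and 0 members past the threshold without projection mouse 1, 2 or 3, where 2.77%, 0.442% and 0.422% of all genes passed. Without plate 12 it was 11 again (3.7% of all genes), 3 higher and 8 lower, with Nrp2 among them and Epha4 no longer so (adjusted p = 0.0885 in edgeR). Within plate 12, which held 34 RSC and 44 LEC cells of projection mouse 3, all 11 genes differed in the direction of the fit. There Nrp1 had 27 RSC and 160 LEC counts (3.66 and 17.9 CPM), Sema3c 17 and 209 (2.30 and 23.4 CPM), Efnb3 41 and 984 (5.56 and 110 CPM) and Unc5d 562 and 246 (76.2 and 27.6 CPM). A single plate of 1 mouse allows no test. The cells of plate 12 were also in the sums from which the genes were called, so their direction is no independent support. The share of all genes with the direction of the fit in this plate was not taken.

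Against Unlabeled cells, RSC cells were lower in 2 of 56 members and higher in 0, against 1.63% of all genes in either direction and 0.93% lower. Nrp1 had a log2 fold change of -3.62 ± 0.46 (adjusted p = 0.00809) and Efnb3, at 35.3, 84.6 and 49.4 CPM in Unlabeled cells, one of -1.94 ± 0.39 (adjusted p = 0.037). With the mouse as a replicate block Efnb3 did not pass (adjusted p = 0.0847), leaving 1 call beside 1.46% of all genes. Without projection mouse 1, 2 or 3 the count was 1, 0 and 0 (0.333%, 0.0562% and 0.236% of all genes), and without plate 12 it was 1 (0.87%). LEC and Unlabeled cells gave 0 calls among 56 members and 0% of all genes in edgeR. There 11 members had an unadjusted p under 0.05, and the share of all genes at that limit was not taken. DESeq2 called 1 member, beside 0.816% of all genes. Sema3c had the log2 fold change 2.08 ± 0.54, LEC over Unlabeled (adjusted p = 0.371), and Nrp1 -0.31 ± 0.40 (adjusted p = 0.96). These comparisons share their RSC, LEC and Unlabeled sums.

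The third comparison held the Synpr class and asked what remained between labels. The class did not hold the mix of Synpr-low cells with and without layer 6 genes. Over both classes these genes summed to 41.8 to 49.3 CPM in LEC and 20.03 to 201.1 CPM in RSC sums. The part of that mix in the values below was not tested. Summed RSC cells of the Synpr-low class numbered only 8 to 14 per mouse and LEC cells of the Synpr-high class 11 to 18, which limits the precision. In all, 0 of 54 members passed in edgeR, as in 0% of 12404 genes, and DESeq2 called 0 members. In edgeR 6 members had an unadjusted p under 0.05, and the share of all genes at that limit was not taken. Without the Synpr-low cells with layer 6 genes, 0 of 53 members and 0% of all genes passed in edgeR. In simulated sums of this design, 54.5% of genes changed 4-fold and 19% of those changed 2-fold were recovered, so changes of these sizes could be missed.

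**Figure D5:**
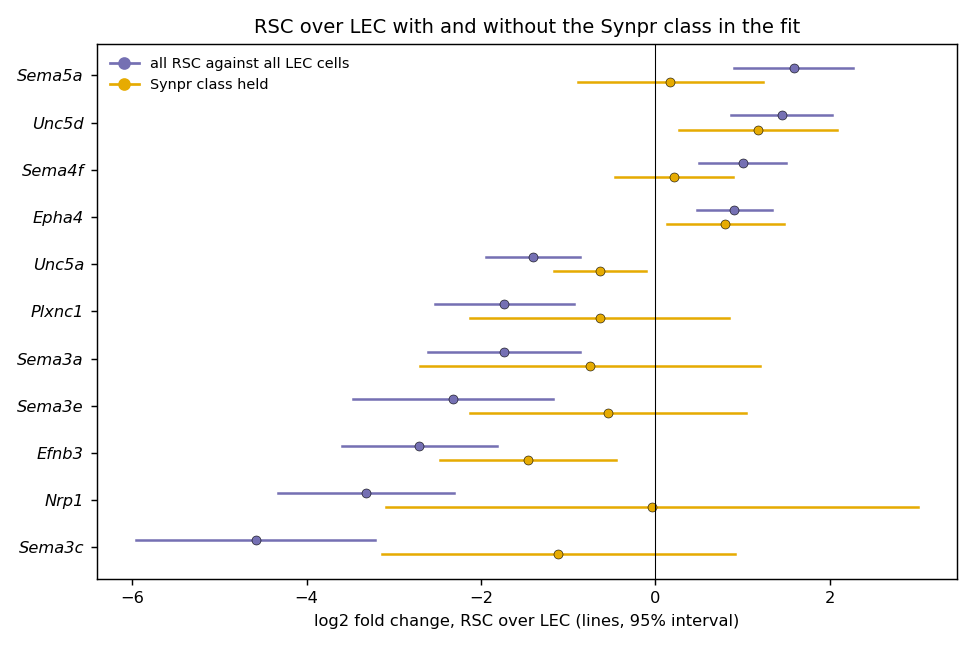
log2 fold change, RSC over LEC, of the 11 genes past the threshold, for all cells (purple) and with the Synpr class held (yellow), with 95% intervals as lines. The class-held value of Nrp1 is -0.04 with an interval from -3.09 to 3.02, and those of Unc5d and Epha4 are 1.17 and 0.80.

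With the class held, Nrp1 had a log2 fold change of -0.04 (95% interval -3.09 to 3.02) and Sema3c of -1.11 (-3.13 to 0.91), against -3.31 and -4.58 over all cells. Within Synpr-low cells Nrp1 was at 12.2 ± 7.6 CPM in RSC and 34.7 ± 9.6 CPM in LEC cells (SD, n = 3), and within Synpr-high cells at 1.12 ± 0.34 and 0.155 ± 0.268 CPM. It was lower in RSC cells of 3 of 3 mice in the first class and higher in 3 of 3 in the second. In the second class the LEC values of Nrp1 were 0, 0.465 and 0 CPM, near the floor, from sums of 11 to 18 cells. That direction therefore rests on very few counts. Plxnc1 differed in the same directions as Nrp1, at 9.82 ± 3.80 and 39.3 ± 16.1 CPM in Synpr-low cells and at 9.96 ± 3.66 and 6.02 ± 6.26 CPM in Synpr-high cells. A test of whether the label differed between classes (an interaction term) called 0 of 54 members and 8 of 12404 genes. The smallest adjusted p among members was 0.308 in that test. It gave 5 members an unadjusted p under 0.05, and the share of all genes at that limit was not taken.

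Efnb3 was lower in RSC cells in both classes of all 3 mice, at 8.31 ± 6.43 against 31.8 ± 9.3 CPM in Synpr-high and 54.9 ± 39.9 against 113 ± 12 CPM in Synpr-low cells (SD, n = 3). Its class-held log2 fold change was -1.46 (95% interval -2.47 to -0.45, adjusted p = 0.699). Unc5d had 1.17 (0.27 to 2.08), Epha4 0.80 (0.13 to 1.47) and Unc5a -0.63 (-1.16 to -0.11), with adjusted p from 0.713 to 0.726. Nrp2 was likewise lower in RSC cells in both classes of all 3 mice, at -0.88 (-1.54 to -0.23, adjusted p = 0.713 in edgeR). Sema6a had 3.75 (0.81 to 6.69), with the same adjusted p, but lay near the floor. LEC cells held 9 Sema6a counts in all, and it was at 0 CPM in Synpr-low LEC cells of every mouse. The genes named so far in this paragraph are the 6 members at an unadjusted p under 0.05 in edgeR. Of the genes called over all cells, Sema5a, Sema4f, Sema3e, Plxnc1 and Sema3a had 0.17, 0.22, -0.55, -0.64 and -0.75. All of these intervals included 0. Epha4 was at 187 ± 46 CPM in RSC and 175 ± 30 CPM in LEC cells of the Synpr-high class, higher in RSC cells of 2 of 3 mice. In the Synpr-low class it was at 168, 115 and 380 CPM in RSC cells of mice 1, 2 and 3, the last a sum of 8 cells, and at 76.6 ± 12.99 CPM in LEC cells. Without plate 12 its class-held log2 fold change was 0.52.

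Other genes of the guidance pathways, which are co-receptors and intracellular effectors and not members, were read from a list of 76, of which 70 were in the tables and 67 were tested. Between Synpr classes 12 passed in edgeR, 5 higher and 7 lower, beside 8.81% of all genes, and 24 passed with the mouse as a replicate block, 10 higher and 14 lower, beside 14.6% of all genes. The median log2 fold change of the list was -0.05. Without projection mouse 1, 2 or 3 the count was 4, 4 and 2, beside 4.48%, 4.76% and 4.06% of all genes. The genes named next were chosen after their values were seen. Dpysl3, a collapsin response mediator that links semaphorin signals to microtubules, was at 105 ± 18 CPM in Synpr-high and 51.9 ± 14.9 CPM in Synpr-low cells (SD, n = 4; log2 fold change 1.01 ± 0.21, adjusted p = 0.013). Its relative Dpysl5 was at 2.02 ± 1.62 and 12.4 ± 5.5 CPM (-2.53 ± 0.68, adjusted p = 0.0443).

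Farp1, which acts with class A plexins, was at 12.9 ± 4.5 and 28.7 ± 1.3 CPM (-1.15 ± 0.25, adjusted p = 0.0182), and Rnd3 at 7.83 ± 3.92 and 1.18 ± 0.70 CPM (2.61 ± 0.58, adjusted p = 0.0191). Ntng2, a membrane-anchored netrin relative, was at 4.45 ± 2.26 and 0.847 ± 0.448 CPM (2.47 ± 0.64, adjusted p = 0.0376). The others included the Nogo receptor Rtn4r, which was higher, and Ablim1, Dock3, Dscaml1, Pak1 and Tiam1, which were lower. Between RSC and LEC cells 0 of the 67 passed in edgeR, beside 3.95% of all genes. There 17 had an unadjusted p under 0.05, and the share of all genes at that limit was not taken. The smallest adjusted p in the list was 0.0568 in edgeR. DESeq2 called 8 of the 67 (8.19% of all genes), and 2 passed with the mouse as a replicate block (3.86% of all genes).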

How the data were processed

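Single excitatory neurons were harvested by hand from the claustrum of 4 mice and sequenced in 13 plates. Per the paper's methods, the authors removed adapters, tagged reads with cell barcodes and molecular identifiers, and aligned them with STAR (version not given in the sources used here); the submitters' processing notes name the build NCBIM37 and Seurat. The deposited values are raw counts per gene and cell. Because the methods state cell totals as reads, each count was treated as 1 read, and 1 molecule may have given several. The annotation and the use of strand in counting are not given in the sources used here. The table of the blindly sampled mouse (16786 genes) and that of the projection mice (23216 genes) were joined, with 0 for a gene that 1 of them does not list. The 89 ERCC spike-in entries, 7.74% of the counts of kept cells, were left out. No cell name was shared between libraries.

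Groups came from the labels. Kept cells had 1 or more counts of both Snap25 and Slc17a7, and no doublet caller was run. Counts were summed per mouse and Synpr class or projection label and tested with edgeR 4.0.16 in R 4.3.3 (TMM, filterByExpr, quasi-likelihood F test, Benjamini-Hochberg over all genes tested, threshold 0.05). The SE was the absolute log2 fold change over the square root of F, and 95% intervals used the t distribution on edgeR's total degrees of freedom. RSC, LEC and Unlabeled sums were fitted together, and the class-held fit used sums of at least 5 cells. Tables were made with numpy 2.4.6, pandas 2.3.3 and scipy 1.17.1. Per the paper's methods, some plates were sequenced on another flow cell with another read length. Which plates these were is not given in the sources used here. The blindly sampled mouse had plates of its own, so its depth, animal and any difference of flow cell cannot be told apart.

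The members and gene lists were chosen with earlier results of these data known. Named were up to 12 members past the threshold per comparison with the largest fold change and 1 direction in every mouse, and members listed for their roles. Sums of 1 mouse share the animal, so the mouse number pairs them: deviations of same-mouse sums correlated between classes with a median r of 0.232 (0.204 to 0.631, 4 pairs) and between labels of 0.0449 (-0.0342 to 0.103, 9 pairs). The fit with the mouse as a replicate block was an alternative, as were DESeq2 1.42.0, library-size scaling, no filter, each mouse left out, Synpr limits of 100 and 400 CPM, at least 2 counts of both kept-cell genes, and cells thinned to 20000 counts, which dropped 84 shallower cells (67 in the blindly sampled mouse and 7, 8 and 2 in projection mice 1 to 3). On simulated counts the fits recovered 60.5% of genes changed 4-fold and 11.5% of those changed 2-fold between classes, and 59.5% and 24% between RSC and LEC. One gene of the signalling list that passed is not reported here by name.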

Additional observations from a re-analysis of the deposited data

Results flagged for a closer look

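Among the levels of 38 named genes in 4 mice of each Synpr class, 76 groups in all, 5 had a mouse far from the other 3. Chance alone flags about 1 in 20 groups of normally distributed values. Where 3 mice are at 0, any count in the remaining mouse flags the group, as for Epha6 below. In Synpr-high cells the blindly sampled mouse stood apart for Sema4f (54.9 CPM, the other mice 87.5 to 90.2 CPM) and for Sema5a (54.9 CPM, the others 34.7 to 36.3 CPM). Projection mouse 3 stood apart in Synpr-high cells for Sema3a (8.54 CPM, the others 1.87 to 2.18 CPM) and for Epha6 (0.216 CPM, from 1 cell, the others 0). Projection mouse 1 stood apart in Synpr-low cells for Unc5b (0.465 CPM, the others 0 to 0.0466 CPM), a gene with 10 counts in that class.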

How the results depend on the processing

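Between Synpr classes the count of 18 members ranged from 6 (4.06% of all genes) to 18 (11.3%) when 1 mouse was left out. It was 8 among cells without a projection label (5.25% of all genes) and 9 there with the replicate block (8.4%). In RSC and LEC cells with the label as a term it was 10 (5.64%). Between RSC and LEC cells the count of 11 was 18 with DESeq2 (8.19% of all genes). Without 1 mouse it ranged from 0 (0.422%) to 8 (2.77%). For RSC against Unlabeled cells the count of 2 was 10 with DESeq2 (4.73% of all genes) and 7 in thinned cells (4.77%). It was 1 with the replicate block (1.46%) and in a fit of only the groups compared (1.71%). With the blindly sampled mouse added as Unlabeled (1.19%) and without plate 12 (0.87%) it was 1 as well. Without 1 mouse it ranged from 0 to 1, beside 0.0562% to 0.333% of all genes. For LEC against Unlabeled cells the count of 0 was 1 with DESeq2 (0.816% of all genes) and 1 in thinned cells (0.446%). With the Synpr class held, the sign turned for Nrp1 (0.04999 with DESeq2, and from -0.31 to 0.15 without 1 mouse, with 0.06 without projection mouse 3) and for Sema5a (-0.0415 at a Synpr limit of 100 CPM, -0.0846 without the layer 6 cells, and from -0.62, without projection mouse 2, to 0.63 without 1 mouse), and neither gene passed there. The cause was not tested. Of the single-gene values, 64 of 349 lost the call between classes and 27 of 143 between RSC and LEC cells, and 0 turned their sign. With the mouse as a replicate block, 24 members passed between classes (14.6% of all genes) and 12 between RSC and LEC cells (3.86%). In these block fits no named member other than Plxnc1 and Efnb3, given above, lost its call. The fits by label, without plate 12, without cells with other-type markers, on genes of both tables and with the block without layer 6 cells were chosen after seeing the data. Depth limits the genes with few counts (Plxnd1, Sema3f, Epha6). The counting interval takes each count as independent and leaves out the spread between cells and mice.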
